A study of Bos taurus with 10 samples.

Results

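Histone genes were followed in single bovine early blastocysts, and 40 of them were measured among 20056 genes tested. They were taken by symbol. The 28 genes whose symbols begin with HIST and a digit form the replication-dependent class, and 12 genes form the variant class, among them *H1FX*, *CENPA* and those beginning with H2AF or H3F. A gene had to reach a mean of at least 1 normalized read count over the 10 embryos, and of 41 genes with such a symbol only *HIST1H4D*, with a mean of 0.970, stayed below it. The rule uses the symbol and the mean over all embryos. The replication-dependent genes fall by their symbols into 5 linker histone H1 genes, 10 H2A genes, 10 H2B genes and 3 H3 genes. No H4 gene is among them.

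Both groups came from zygotes that had been microinjected with mRNA of BE3, a cytosine base editor. The 5 WT embryos received this mRNA and nothing else, and the 5 *SOX2* KO embryos received it together with sgRNAs designed to place premature stop codons in *SOX2*. The labels give the age as day 7.0 and the study's text gives a slightly later day. The zona pellucida was removed, each embryo was sequenced alone by Smart-seq2, and the genotype of each KO embryo rests on the study's sequencing of part of its cDNA. These were edited embryos and not a bred line, so the alleles may differ between embryos and between the cells of 1 embryo. The WT embryos are named nc1 to nc5 and the *SOX2* KO embryos ko1 to ko5 below.

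Histones package DNA into nucleosomes, with H2A, H2B, H3 and H4 in the core and H1 on the linker DNA. The replication-dependent genes lie in clusters, are transcribed in S phase and supply the histones for newly made DNA. Their mRNAs usually end in a stem-loop that is bound by SLBP and carry no poly(A) tail. Variant genes usually lie alone in the genome, are often expressed outside S phase too and mostly give polyadenylated mRNAs. They supply histones that are mostly placed outside replication or at special sites, such as CENP-A at centromeres. Single variants can depart from these traits, which were not examined here. Smart-seq2 primes cDNA synthesis on poly(A) with oligo(dT). Its reads from replication-dependent genes therefore come from whatever part of these RNAs the primer reached, and the share of all their transcripts that this part makes up is unknown. Cells that do not divide can also polyadenylate some of these mRNAs.

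The reads behind the normalized values numbered 2223670 to 5134855 in WT and 2578284 to 4337342 in KO embryos, and 1 read corresponds to a normalized count of 0.590 to 1.48. The 18S ribosomal RNA gene *RN18S1*, which is no poly(A) mRNA, held between 26.4% and 37.0% of an embryo's reads in WT and between 32.5% and 44.95% in KO embryos. *SOX2* itself had normalized counts of 56.5 to 93.4 in WT and 26.4 to 82.1 in KO embryos, and the groups overlapped (limma adjusted p = 0.167). A stop codon need not lower the read count of its gene. Of the epiblast markers, 4 of 8 tested were lower, with summed counts of 2096 to 2626 in WT and 1031 to 1385 in KO embryos, and of the primitive endoderm markers 3 of 7 were lower, with sums of 1425 to 1712 and 1130 to 1280, where 1.16% of all genes tested were called lower. Of 12 trophectoderm markers 1 was higher (sums of 27123 to 39841 and 37149 to 49962), of 11 cumulus cell markers 3 were higher (108 to 183 and 211 to 335), and of 9 oocyte markers 1 was higher (33.6 to 156 and 47.6 to 68.6), where 8.93% of all genes tested were called higher. In whole embryos, fewer cells of a type and less RNA per cell cannot be told apart. Among these lists, *FGF4*, *NODAL*, *SOX17* and *PTX3* were not among the genes tested. The part of these differences in the histone results was not tested.

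Several H1 and H2A genes of the replication-dependent class had lower counts in *SOX2* KO than in WT embryos. By the study's thresholds 5 of the 28 fell, namely *HIST1H2AH*, *HIST1H2AJ*, *HIST1H1A*, *HIST1H1B* and *HIST1H1E*, and none rose. Of the 12 variants none fell and 1 rose, *H1FX*. A gene was called here when the Benjamini-Hochberg adjusted p of limma over all 20056 genes was at most 0.05 and its fold change was at least 2 or at most 0.5. The log2 fold changes are of *SOX2* KO against WT on the log2(normalized read count + 1) scale, on which genes with few reads appear to change less than they do.

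The 5 lower genes are 17.9% of the replication-dependent class, whereas over all genes tested 1.16% were called lower and 8.93% higher. With a mean of 10 or more as a limit, which keeps 16 of the 28 and all 5 calls, 1.9% of genes were called lower. Quantile normalization, under which 41.8% of all calls were of lower genes in place of 11.5%, called 9 of the 28 and 2.25% of all genes lower. The median log2 fold change was -0.77 over the replication-dependent class, with 25 of 28 genes below 0. With the minimum mean of 10 the median of the class was -0.85. Some genes with few reads reached the minimum mean of 1 through 1 group alone and are named here for that reason. These were *HIST3H2BB* and *HIST1H3I* through WT and *HIST3H2A* through KO embryos. Over the variants the median was -0.18, with 8 of 12 below 0. It was 0.25 over all genes tested, of which 37.1% lay below 0, and -0.04 over those with a mean of 10 or more. In 6 of the 28 replication-dependent genes every *SOX2* KO embryo was below every WT embryo, and 2.76% of all genes tested had this order. No variant had it. In none of the 40 was every KO embryo above every WT embryo, an order that 6.41% of all genes tested had.

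**Figure D1:**
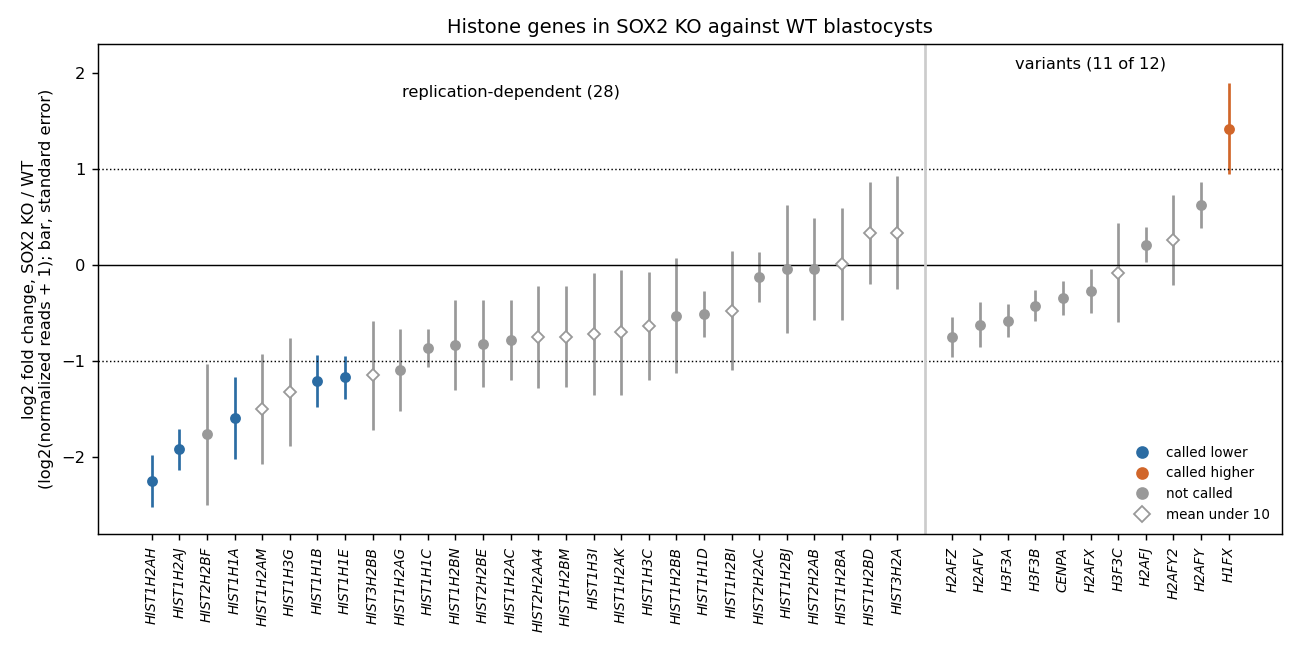
Log2 fold change of *SOX2* KO against WT (vertical axis, on the log2(normalized read count + 1) scale) for 39 of the 40 histone genes, listed by class; circles are genes with a mean of 10 or more, open diamonds genes with a lower mean, bars the standard error of limma, and dotted lines mark fold changes of 2 and 0.5. The 5 genes called lower (blue) are H1 and H2A genes, *H1FX* is the 1 gene called higher (orange), and most replication-dependent genes lie below 0.

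The H1 genes encode the linker histones, which bind between nucleosomes and compact the fibre. All 5 had log2 fold changes below 0, with a median of -1.17, and 3 of them fell. *HIST1H1C*, which RefSeq names H1-2, had the most reads of the replication-dependent genes, 1829 over the WT and 788 over the KO embryos. Its normalized counts were 366, 319, 313, 297 and 259 in nc1 to nc5 and 177, 144, 224, 106 and 228 in ko1 to ko5. The groups did not overlap, and the KO values were more scattered. The means were 311 ± 38.7 in WT and 176 ± 52.5 in KO embryos (SD, n = 5 each), a log2 fold change of -0.86 (SE 0.20). With a limma adjusted p of 0.00831 it passed the threshold on p and missed the one on the fold change, with a fold of 0.550.

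*HIST1H1E* (RefSeq symbol H1-12) had counts of 146, 174, 113, 142 and 110 in WT and 33.4, 72.6, 73.3, 58.3 and 71.5 in KO embryos. All KO values lay below the lowest WT value, and ko1 was the lowest of them. It fell by 1.17 on the log2 scale (SE 0.23, limma adjusted p = 0.00302). Without ko1 the log2 fold change was -0.97 and the gene no longer met the fold threshold.

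*HIST1H1B* had counts of 40.4, 60.8, 47.7, 55.2 and 34.8 in WT and 18.9, 14.5, 22.1, 23.8 and 20.8 in KO embryos. Again the groups did not overlap, and the KO embryos were close to each other. Its log2 fold change was -1.20 (SE 0.27, limma adjusted p = 0.00811).

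Of the H1 genes, *HIST1H1A* varied most among the WT embryos, with counts of 14.5, 69.7, 17.9, 43.5 and 21.2, against 6.68, 14.5, 6.98, 7.39 and 9.22 in the KO embryos. The embryos nc2 and nc4 carried the high values, and ko2 was level with nc1, so the groups touched. It fell by 1.59 on the log2 scale (SE 0.43, limma adjusted p = 0.0200). The call was lost without nc2 (adjusted p = 0.0683) and without nc4 (adjusted p = 0.0596).

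*HIST1H1D* (RefSeq symbol H1-3) was the steadiest of these genes in WT, at 50.0 ± 4.41 (SD, n = 5), and had 35.4 ± 8.27 (SD, n = 5) in KO embryos. Its log2 fold change of -0.51 (SE 0.24) did not pass the test (limma adjusted p = 0.142), and the groups overlapped through ko4 at 47.6. With log2 *RN18S1* as a covariate in limma, *HIST1H1B* (log2 fold change -1.35, adjusted p = 0.0892) and *HIST1H1A* (-1.44, adjusted p = 0.271) were no longer called, while *HIST1H1C* was called with a log2 fold change of -1.24 (adjusted p = 0.00839). With this covariate 68 genes (0.339%) were called lower in place of 232.

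H2A forms a dimer with H2B at the faces of the nucleosome. Of the 10 H2A genes 9 were below 0, with a median log2 fold change of -0.77, and 2 fell. *HIST1H2AJ* had counts of 276, 233, 195, 261 and 197 in nc1 to nc5 and 65.7, 64.7, 93.0, 36.1 and 54.2 in ko1 to ko5. The groups lay far apart, with ko3 the highest KO embryo and nc3 the lowest WT embryo. Means were 232 ± 36.6 and 62.8 ± 20.7 (SD, n = 5 each), a fold of 0.264 and a log2 fold change of -1.92 (SE 0.22, limma adjusted p = 1.8e-05).

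*HIST1H2AH* had counts of 83.9, 117, 55.7, 101 and 95.6 in WT and 16.7, 18.5, 29.1, 14.0 and 13.8 in KO embryos. The groups were apart here too, by the same pair of embryos. Its log2 fold change, -2.25 (SE 0.27, limma adjusted p = 4.31e-05), was the lowest of all 40 members. Both H2A genes were called under each of the 11 other settings and with each of the 10 embryos left out. *HIST1H2AJ* made up 43.1% to 58.9% of the summed H2A counts in WT and 27.0% to 46.0% in KO embryos.

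The other H2A genes with a mean of 10 or more did not pass the test. *HIST1H2AG* (RefSeq symbol H2AC14) had counts of 10.7, 51.9, 18.9, 35.7 and 25.4 in WT and 7.79, 23.8, 11.6, 9.86 and 8.07 in KO embryos, with a log2 fold change of -1.09 (SE 0.43, limma adjusted p = 0.0858). Most KO embryos were below most WT embryos, but nc1 and ko2 crossed over. It was called without nc1 (adjusted p = 0.0469) and without ko2 (adjusted p = 0.0441). *HIST1H2AC* (H2AC6) had means of 21.0 ± 10.01 and 11.5 ± 4.68 (SD, n = 5 each; log2 fold change -0.78, limma adjusted p = 0.195), and with the *RN18S1* covariate a log2 fold change of -0.020.

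Among the H2A genes of this depth, those whose symbols begin with HIST2 were near 0. *HIST2H2AC* (H2AC20) had counts of 29.8 to 56.4 in WT and 29.1 to 47.7 in KO embryos, with a log2 fold change of -0.13 (SE 0.26, limma adjusted p = 0.766). For *HIST2H2AB* the counts were 2.98 to 25.2 and 5.28 to 20.04, with a log2 fold change of -0.04 (SE 0.53, limma adjusted p = 0.969). *HIST2H2AA4*, with a mean under 10 and named after its values were seen, was at -0.75 (SE 0.53, limma adjusted p = 0.333), and a difference between HIST1 and HIST2 genes was not tested.

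**Figure D2:**
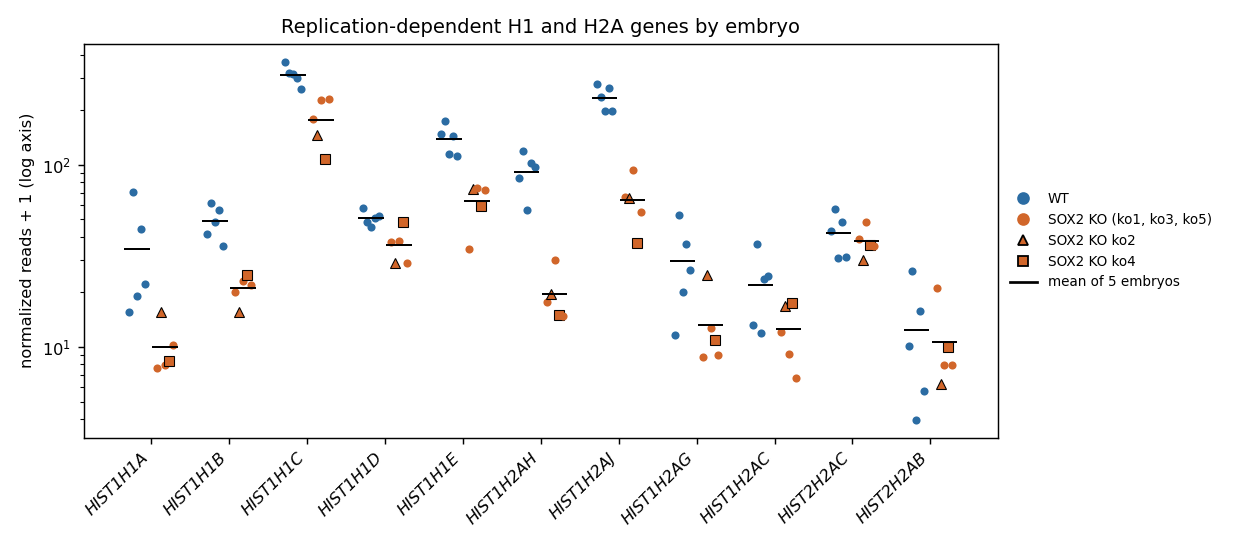
Normalized read count + 1 (log axis) of H1 and H2A genes (vertical) by gene (horizontal) in each of the 5 WT (blue) and 5 *SOX2* KO (orange) embryos; the black line is the mean of 5 embryos, and triangle and square mark ko2 and ko4. In *HIST1H2AH*, *HIST1H2AJ*, *HIST1H1B*, *HIST1H1C* and *HIST1H1E* all KO points lie below all WT points.

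Several H2B genes scattered widely among the KO embryos. Of the 10 H2B genes none passed the test, 8 had log2 fold changes below 0, and the median was -0.64. *HIST1H2BB* had counts of 106, 91.9, 26.8, 131 and 66.7 in nc1 to nc5 and 33.4, 129, 11.6, 288 and 23.1 in ko1 to ko5. The embryo ko4 exceeded every WT embryo, ko2 lay within the WT range, and ko3 and ko5 were below all WT embryos. Highest and lowest differed 24.8-fold among KO embryos and 4.86-fold among WT embryos. The log2 fold change was -0.53 (SE 0.60, limma adjusted p = 0.563), and the arithmetic means, 84.4 ± 39.6 and 97.2 ± 117 (SD, n = 5 each), stand in the opposite order. It was -1.15 without ko4 and 0.20 in DESeq2.

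*HIST1H2BJ* showed the same pair of embryos at the top. It had counts of 14.5, 17.8, 14.9, 38.9 and 16.5 in WT and 8.91, 151, 5.81, 47.6 and 4.61 in KO embryos. Here ko2 was the highest, ko4 the second, and the remaining KO embryos were below every WT embryo, so that the KO values spanned 32.6-fold and the WT values 2.68-fold. The log2 fold change of -0.04 (SE 0.67, limma adjusted p = 0.973) is thus a mean over KO embryos on both sides of the WT range. It was -0.78 without ko2 and 1.08 in DESeq2.

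*HIST2H2BE* (RefSeq symbol H2BC21) had counts of 74.8, 20.8, 41.8, 72.3 and 50.2 in WT and 40.1, 9.24, 16.3, 87.9 and 23.1 in KO embryos. It was high in ko4 and low in ko2, unlike *HIST1H2BJ*. Its log2 fold change was -0.82 (SE 0.45, limma adjusted p = 0.216). Without ko4 it was -1.24 and the gene was called (adjusted p = 0.0334).

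For *HIST1H2BN* the counts were 10.9 to 31.1 in WT and 3.49 to 23.8 in KO embryos (log2 fold change -0.83, SE 0.46, limma adjusted p = 0.219). *HIST2H2BF* was set by 1 embryo, with 86.0 in nc2 and 2.98 to 8.55 in the other WT embryos, against 0 to 7.92 in KO embryos. Its log2 fold change was -1.76 (SE 0.73, limma adjusted p = 0.105), and it was -1.01 without nc2 (adjusted p = 0.302). *HIST1H2BD*, whose mean is under 10 and which is named because its values were seen, followed ko2 and ko4 as well, with 11.9 and 24.6 against 4.45 to 4.65 in the other KO embryos and 3.98 to 11.7 in WT.

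H2B genes are near-identical in their coding parts, and some of these symbols share a match in RefSeq. *HIST1H2BB* matches H2BC15, and *HIST1H2BN* matches both H2BC15 and H2BC12, so which gene the latter stands for is uncertain. *HIST1H2BD* and *HIST1H2BI* both match H2BC5. How the counting treated reads that fit several genes is not given in the sources used here, so the split of reads among H2B genes is uncertain. Reads could be shared among H1, H2A and H3 genes too, and how far was not measured. *HIST1H2AH* and *HIST1H2AJ* match no RefSeq gene by symbol.

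**Figure D3:**
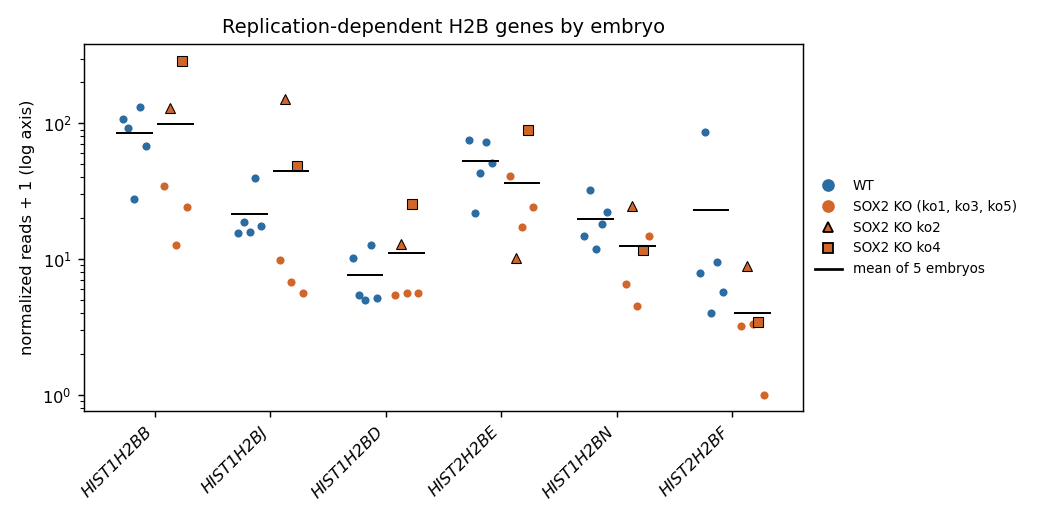
Normalized read count + 1 (log axis) of 6 H2B genes in each WT (blue) and *SOX2* KO (orange) embryo, with the mean of 5 embryos as a black line. The triangle (ko2) and the square (ko4) stand above the other KO embryos in *HIST1H2BB* and *HIST1H2BJ*, while in *HIST2H2BE* the square is the highest and the triangle the lowest of the KO embryos.

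The 3 H3 genes had few reads. *HIST1H3G*, named because its groups did not overlap, had counts of 7.42 to 13.7 in WT and 0 to 6.98 in KO embryos, from 66 and 22 reads (log2 fold change -1.32, SE 0.56, limma adjusted p = 0.113). The other H3 genes had 13 WT reads each and 3 and 5 KO reads. In all, 12 replication-dependent genes had a mean under 10. None of them was called, 9 lay below 0, their log2 fold changes ran from -1.50 to 0.34 and their adjusted p from 0.0819 to 0.993. They had 11 to 92 reads over the 10 embryos, which gives little precision.

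Further histone genes lay outside the symbol rule, since the table lists them by other symbols, most of them a gene ID. The RefSeq symbols mark 27 of them as histone genes, a set made after the table was seen. One of the 27 was called lower, a gene that RefSeq names H2AC16 (log2 fold change -1.80, limma adjusted p = 0.0230), and none was called higher. That call rests on 20 WT reads and 1 KO read and was kept with 5 of the 10 embryos left out in turn and in 7 of the 11 other settings, and 1.16% of all genes were called lower. With means of 3.10 in WT and 0.164 in KO embryos, H2AC16 reached the minimum mean of 1 through its WT values alone. Over the set the median log2 fold change was -0.86 and 23 of 27 lay below 0. Both figures include further genes that passed through WT alone, such as H2AC11 with means of 2.25 and 0.233. H4, which forms the central tetramer with H3, is represented only here. All 9 H4 genes were below 0, with a median of -0.99 and none called. Their summed counts were 114, 206, 109, 178 and 102 in nc1 to nc5 and 54.6, 99.0, 59.3, 77.2 and 70.3 in ko1 to ko5, so the groups did not overlap. The 6 H2A and the 7 H2B genes of this set also lay below 0. Both genes of H2A.B, a separate short H2A variant, were above 0 and not called. H2AB1 was at 1.30 (limma adjusted p = 0.127), from 2 WT and 12 KO reads. H2AB2 was at 1.29 (limma adjusted p = 0.108), from 1 WT read and 10 KO reads. Both reached the minimum mean of 1 through their KO values alone. The H3 gene of this set was at 0.0036, and of both H1 genes *H1FOO*, the oocyte linker histone, was at 0.68 and the other at -1.07.

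Summed over their genes, the classes separated the embryos to different degrees. The replication-dependent class had summed normalized counts of 1345, 1498, 992, 1385 and 1055 in nc1 to nc5 and 550, 782, 623, 848 and 574 in ko1 to ko5. The groups did not overlap, and the KO mean was 53.8% of the WT mean. Of the H1 genes the KO sum was 52.2% of the WT sum, and of the H2A genes it was 36.1%.

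H1 sums were 476 to 670 in WT and 243 to 364 in KO embryos. H2A sums were 331 to 540 and 130 to 202. Both were apart in all embryos, and so were the H3 sums, at 10.9 to 22.2 and 2.64 to 9.30. The H2B sums were 232, 265, 113, 288 and 177 in WT and 99.1, 342, 47.7, 463 and 78.4 in KO embryos, and their KO mean was 95.8% of the WT mean. H2B genes took 11.4% to 20.8% of the replication-dependent counts in WT, and 18.02%, 43.8%, 7.65%, 54.7% and 13.7% in ko1 to ko5. In ko2 and ko4 this share was far above that of any WT embryo, and in ko3 it was below. These sums are led by their most abundant genes and carry no test.

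**Figure D4:**
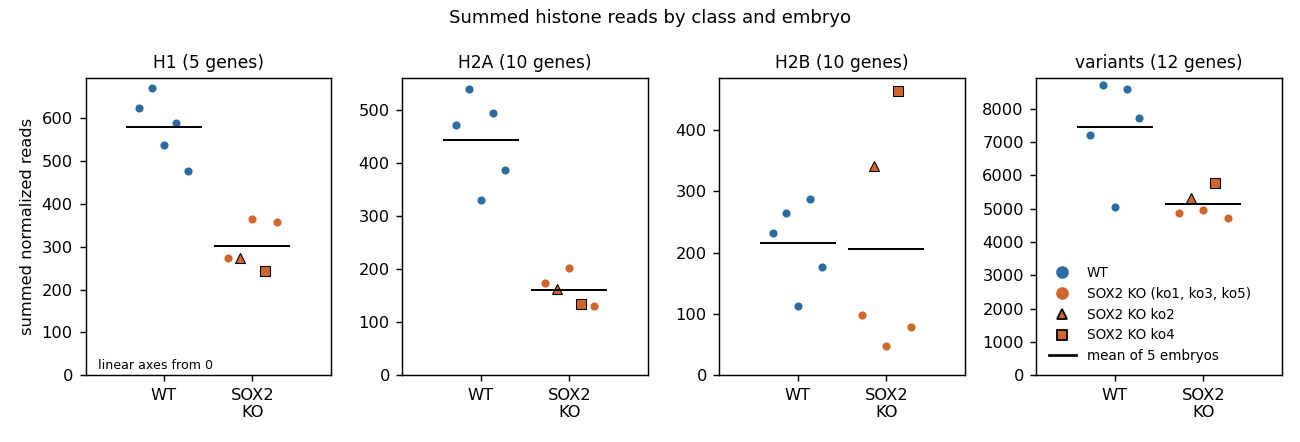
Summed normalized read counts (linear axes from 0) of the replication-dependent H1, H2A and H2B genes and of the variants, 1 panel each, in each WT (blue) and *SOX2* KO (orange) embryo, with the mean of 5 as a black line. The H1 and H2A sums of the KO embryos lie below those of all WT embryos, the H2B sums of ko2 (triangle) and ko4 (square) lie above them, and the variant sums overlap.

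The variants gave most of the histone reads, counted without regard to gene length. Their summed counts were 7200, 8704, 5035, 8602 and 7729 in WT and 4858, 5323, 4953, 5780 and 4709 in KO embryos. The groups overlapped through nc3, and the KO mean was 68.7% of the WT mean. Replication-dependent genes thus took 15.7%, 14.7%, 16.5%, 13.9% and 12.01% of all histone counts in nc1 to nc5 and 10.2%, 12.8%, 11.2%, 12.8% and 10.9% in ko1 to ko5. The shares overlapped through nc5, and the difference between the classes was not tested.

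H3.3 replaces H3 outside replication and is encoded by *H3F3A* and *H3F3B*, separate genes that give 1 protein. *H3F3A* had counts of 2181, 2672, 1689, 2783 and 2689 in WT and 1387, 1639, 1715, 1409 and 1805 in KO embryos. Only nc3 reached into the KO range. The log2 fold change was -0.58 (SE 0.17), which passed the threshold on p (limma adjusted p = 0.0301) and missed the one on the fold. *H3F3B* had 1529 ± 268 and 1131 ± 148 (SD, n = 5 each), with a log2 fold change of -0.42 (SE 0.16, limma adjusted p = 0.0817). The ratio of *H3F3A* to *H3F3B* counts was 1.32 to 1.80 in WT and 1.07 to 1.85 in KO embryos. *H3F3C*, with 32 reads in WT and 26 in KO embryos, had a mean of 5.91 in either group. Its symbol matches the RefSeq genes H3-5 and H3-3D, so which protein it stands for is uncertain.

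H2A.Z marks promoters and enhancers and is encoded by *H2AFZ* (RefSeq symbol H2AZ1) and *H2AFV* (H2AZ2). *H2AFZ* had counts of 1780, 2859, 1219, 2312 and 2167 in WT and 1140, 1412, 1187, 1461 and 824 in KO embryos. As for *H3F3A*, nc3 was the lowest WT embryo and lay among the KO values. The log2 fold change was -0.75 (SE 0.21, limma adjusted p = 0.0234), short of the fold threshold. *H2AFV* had counts of 822, 887, 486, 998 and 792 in WT and 405, 489, 394, 1015 and 405 in KO embryos (log2 fold change -0.62, SE 0.23, limma adjusted p = 0.0762). The embryo ko4 stood above all others, and the ratio of *H2AFZ* to *H2AFV* was 1.44 in ko4 and 2.04 to 3.22 elsewhere. By adjusted p alone, *H2AFZ* and *H3F3A* were the 2 variants that were lower, and 3.2% of all genes tested were lower by this rule. With 1 embryo left out in turn, the adjusted p of *H2AFZ* was above 0.05 in 4 of 10 fits (up to 0.0834, without ko5) and that of *H3F3A* in 7 of 10 (up to 0.0808, without ko1). With the *RN18S1* covariate they were at 0.571, with a log2 fold change of -0.31 for *H2AFZ*, and at 0.268, with -0.56 for *H3F3A*. The mean count of *RN18S1* was itself higher in KO embryos, so this covariate can take up part of a group difference. Over all genes tested it left 68 called lower in place of 232.

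MacroH2A carries a large globular domain next to its histone part and is enriched on silent chromatin. *H2AFY* (MACROH2A1) had counts of 104, 74.2, 40.8, 83.1 and 84.4 in WT and 158, 115, 131, 84.6 and 98.0 in KO embryos. The KO embryos were on the high side, with ko4 and ko5 inside the WT range. Its log2 fold change of 0.63 (SE 0.24) did not pass the test (limma adjusted p = 0.0792). *H2AFY2* (MACROH2A2), at 5.62 ± 1.85 and 6.91 ± 2.13 (SD, n = 5 each), did not differ beyond the spread between embryos (log2 fold change 0.26, SE 0.47).

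*H2AFX* encodes H2A.X, which is phosphorylated at DNA breaks. It had counts of 107 to 266 in WT and 90.2 to 182 in KO embryos (log2 fold change -0.27, SE 0.23, limma adjusted p = 0.430). *H2AFJ* (H2AJ) had 164 ± 31.3 and 190 ± 37.3 (SD, n = 5 each; log2 fold change 0.21, SE 0.18, limma adjusted p = 0.440). *CENPA*, the H3 variant of the centromere, had counts of 184 to 285 in WT and 139 to 221 in KO embryos, with a log2 fold change of -0.34 (SE 0.17, limma adjusted p = 0.177). All 3 overlapped between the groups.

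*H1FX*, a linker histone variant, was the 1 histone gene called higher. Its counts were 6.11, 11.9, 12.9, 3.11 and 2.36 in WT and 21.2, 21.1, 20.9, 9.86 and 19.6 in KO embryos, from 37 and 82 reads. All KO embryos but ko4 were above every WT embryo. The means of 7.27 ± 4.90 and 18.5 ± 4.89 (SD, n = 5 each) gave a log2 fold change of 1.42 (SE 0.47) and a limma adjusted p of 0.0493, just inside the threshold. It was also the 1 member higher by adjusted p alone, by which 10.4% of all genes tested were higher. It was called in 3 of the 11 other settings and with 3 of the 10 embryos left out in turn.

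**Figure D5:**
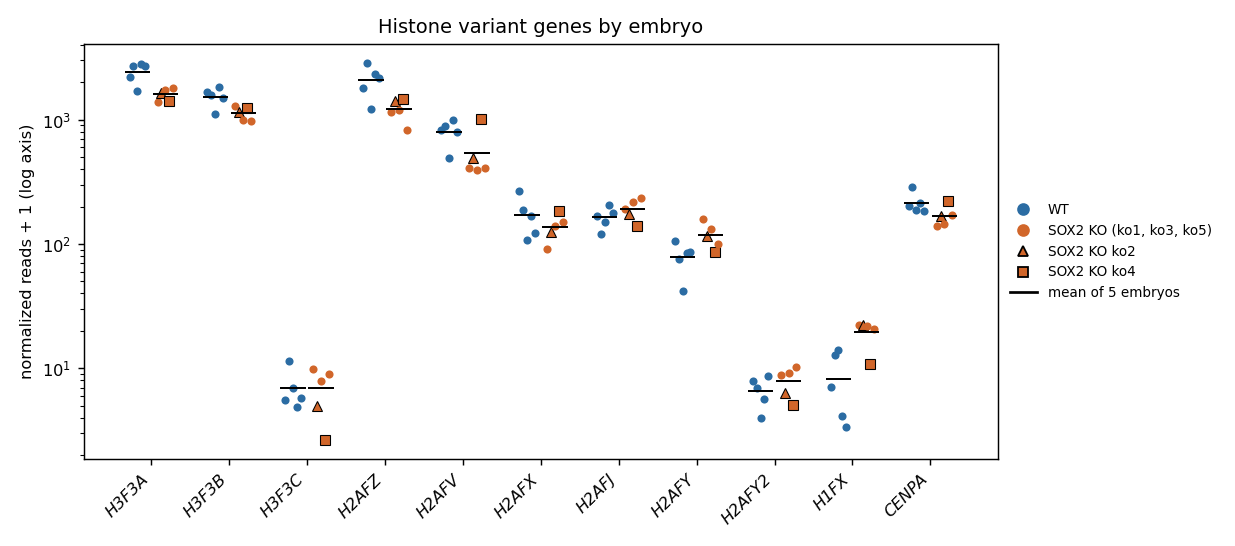
Normalized read count + 1 (log axis) of 11 of the 12 histone variants in each WT (blue) and *SOX2* KO (orange) embryo, by gene along the horizontal axis, with the mean of 5 embryos as a black line, ko2 as a triangle and ko4 as a square. The groups overlap for every gene, the KO points of *H2AFZ* and *H3F3A* sit low, and those of *H1FX* sit high apart from ko4.

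Genes that make, carry and place histones were taken as lists. For comparison, 37.1% of all genes tested lay below 0, 1.16% were called lower and 3.2% were lower by adjusted p alone. The median log2 fold change was 0.25 over all genes tested and -0.04 over those with a mean of 10 or more. Most of the latter thus lay below 0, and 1.9% of them were called lower. For the 3′ end processing and turnover of histone mRNA, 19 genes were tested, none was called, 16 lay below 0 and the median log2 fold change was -0.22. By adjusted p alone, *SLBP* and *CPSF2* were lower. *SLBP*, which binds the stem-loop, had counts of 408, 408, 374, 410 and 388 in WT and 295, 343, 276, 259 and 210 in KO embryos. The groups did not overlap (log2 fold change -0.54, SE 0.15, limma adjusted p = 0.0248). *CPSF2*, a subunit of the cleavage complex, had 310 ± 49.2 and 191 ± 30.7 (SD, n = 5 each; log2 fold change -0.70, limma adjusted p = 0.0110). *SRRT* and *NCBP1*, the other genes with the most reads of this list, had log2 fold changes of -0.27 (limma adjusted p = 0.237) and -0.35 (adjusted p = 0.10).

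Of 17 chaperones of replication-coupled histone deposition none was called and 14 lay below 0, with a median of -0.19. *NASP*, a carrier of H3 and H4, had counts of 1041, 1661, 921, 1234 and 861 in WT and 660, 610, 599, 733 and 700 in KO embryos (log2 fold change -0.75, SE 0.17, limma adjusted p = 0.00844). All KO embryos lay below all WT embryos. *NAP1L1*, a chaperone of H2A and H2B and the gene with the most reads of this list, had a log2 fold change of -0.12 (limma adjusted p = 0.670), and those of *RBBP7* and *RBBP4* were -0.29 (adjusted p = 0.285) and -0.31 (adjusted p = 0.302). *SUPT16H*, a subunit of FACT, was also lower by adjusted p alone (log2 fold change -0.63, limma adjusted p = 0.0118).

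Of 17 chaperones and deposition factors of variants, likewise, none was called, 15 lay below 0 and the median was -0.26. *DEK*, an H3.3 chaperone, was lower by adjusted p alone, with counts of 428 to 571 in WT and 263 to 302 in KO embryos (log2 fold change -0.79, SE 0.14, limma adjusted p = 0.00166). So were 3 factors of the centromere, *MIS18A* (log2 fold change -0.97, limma adjusted p = 0.00315), *CENPN* (-0.95, adjusted p = 0.0215) and *CENPC* (-0.69, adjusted p = 0.0223). *CENPA* itself did not pass, and neither did *ATRX* (-0.20, adjusted p = 0.429) and *ANP32E* (-0.11, adjusted p = 0.701), which are among the genes with the most reads of this list.

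Of 24 genes of S phase none was called, 21 lay below 0 and the median was -0.40, and 7 were lower by adjusted p alone, the rule that 3.2% of all genes met. They include *CCNA2*, the cyclin of S phase and G2, with counts of 306 to 405 in WT and 131 to 258 in KO embryos (log2 fold change -0.95, SE 0.18, limma adjusted p = 0.00250), and *GINS1*, a subunit of the replicative helicase (log2 fold change -0.74, limma adjusted p = 0.00811). *RRM2*, which supplies deoxynucleotides and has the most reads of the list, had 812 ± 159 and 625 ± 60.6 (SD, n = 5 each; log2 fold change -0.36, limma adjusted p = 0.128). *PCNA* and *MCM4* had log2 fold changes of -0.44 (limma adjusted p = 0.121) and -0.12 (adjusted p = 0.689). *SLBP*, given above with the processing genes, stands in the S phase list too and is among its 7 genes lower by adjusted p. *SUPT16H*, *MIS18A*, *CENPN*, *CENPC* and *CCNA2* are named because of their values. The study reports fewer cells per *SOX2* KO blastocyst, and similar total cell numbers in the early blastocysts taken for sequencing. The part of S phase or cell number in the histone counts was not tested.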

How the data were processed

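Single-embryo RNA was amplified by Smart-seq2. The authors used Trimmomatic for trimming, Hisat2 for mapping to ARS-UCD1.2 and featureCounts for counting. What they deposited is a normalized signal, in which DESeq2 size factors divide the read counts of every embryo. The annotation release, the strand setting and the treatment of reads that fit several genes are not given in the sources used here. Within a tolerance of 1e-06, each of the 201120 values (100%) is a whole multiple of the worth of 1 read in its embryo, which gave back the reads. Reads carry no molecular identifiers, so copies of 1 molecule count separately. The 5 KO columns could be tied to their group but not to a single sample label.

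The test was limma 3.58.1 (lmFit and eBayes with a trend, R 4.3.3) on log2(normalized read count + 1) between 5 WT and 5 *SOX2* KO embryos, without covariates and with 20056 genes whose mean reached 1. Its p-values set the difference between the groups against the spread between these embryos. As alternatives, the recovered reads were tested with DESeq2 1.42.0 and with edgeR 4.0.16 (quasi-likelihood). The other alternatives were pseudocounts of 0.1 and 5, 4 further scalings, a minimum mean of 10 or none, *RN18S1* as a covariate, no fold threshold, and each embryo left out. The test was checked on simulated counts.

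The members and gene lists were chosen with earlier results of these data known. Named genes are the variants, replication-dependent genes that were called or have a mean of at least 10, and of each list the called genes and the 4 with the highest mean; exceptions are stated, and cell type markers are given only as counts and sums. A single variant and a single list gene are counted in their groups and are not reported here on their own. RefSeq names come from a table of ARS-UCD2.0, in which, of 39 members, 19 matched 1 gene, 2 matched 2 genes and 18 matched none. As it describes another assembly, no coordinates are given. Sequences of the members are not used here.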

Additional observations from a re-analysis of the deposited data

Results flagged for a closer look

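Each named member and class sum was examined for 1 embryo far from the others of its group by Dixon's test at the 95% level. Of 64 groups of 5 embryos 7 stood out, and chance alone gives about 3.2. In WT these were *HIST2H2BF* in nc2 (86.0 against 2.98 to 8.55), *HIST1H2BJ* in nc4 (38.9 against 14.5 to 17.8) and *CENPA* in nc2 (285 against 184 to 211). In *SOX2* KO embryos they were *HIST1H2AG* in ko2 (23.8 against 7.79 to 11.6), *HIST2H2AB* in ko1 (20.04 against 5.28 to 9.04), *H2AFV* in ko4 (1015 against 394 to 489) and *H1FX* in ko4 (9.86 against 19.6 to 21.2). The high values of *HIST1H2BB* and *HIST1H2BJ* in both ko2 and ko4 are not among them, since this test looks at 1 embryo at a time. No cause was tested for any of these.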

How the results depend on the processing

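The number of replication-dependent genes called lower was 5, between 4 and 6 under the settings other than quantile normalization and with each embryo left out (4 to 6), and 9 with quantile normalization, which moved the median of all genes from 0.25 to -0.02; equal totals moved it to 0.14. The number called higher was 0 throughout. The median log2 fold change of the class was -0.77, -1.38 with quantile normalization, and -0.87 to -0.67 with each embryo left out. A pseudocount of 5 gave -0.48 and scaling by the median ratio -0.68. For the variants the median was -0.18, -0.41 with quantile normalization, and -0.32 to -0.13 with each embryo left out. Scaling by the median ratio gave -0.085 for the variants. The 1 variant called higher, *H1FX*, was 0 with pseudocounts of 0.1 and 5, both rescalings to equal totals, quantile normalization, a minimum mean of 10, *RN18S1* as a covariate and edgeR, and 0 to 1 with each embryo left out. Variants called lower were 0, and 2 without the fold threshold.

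Of 565 values of 27 named members under 21 settings, 514 kept their direction and whether the gene was called, 20 lost a call, 5 gained one and 26 changed sign. The log2 fold change of *HIST1H2BJ* was 0.10 with a pseudocount of 5, 0.050 with scaling by the median ratio, 1.07 with the *RN18S1* covariate, 1.08 in DESeq2, 0.98 in edgeR and -0.78 to 0.41 with each embryo left out. *HIST1H2BB* was at 0.60 with the covariate, 0.20 in DESeq2 and 0.16 in edgeR. *HIST2H2AB* was at 0.058 with the median ratio, 0.22 with the covariate and -0.37 to 0.31 with embryos left out, and *H3F3C* at 0.015 with the median ratio, 0.038 in DESeq2 and -0.25 to 0.23. *H2AFJ* was at -0.018 with the covariate and *H2AFY2* at -0.45 with quantile normalization. edgeR called *HIST2H2BF* (log2 fold change -2.84, adjusted p = 0.0354). The cause was not tested. No paired analysis was possible because KO columns cannot be tied to the replicate numbers in the labels.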
